A study of Homo sapiens with 2 samples.

Results

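Translation factors are the proteins that bring the ribosome to an mRNA, find the start codon, move the ribosome along the message and release the finished chain. YBX1 binding to the mRNAs of 45 such genes was examined here, from the initiation factors EIF1 to EIF6 and the elongation factors EEF1A1 to EEF2 to the release factors ETF1 and GSPT1. A binding site was assigned to a gene when its midpoint lay within the span of that gene in GENCODE release 44, on the strand of the site. By this rule, 25 of the 2054 listed YBX1 sites lay in 10 of the 45 genes, and 35 genes had no listed site.

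The sites came from PAR-CLIP, in which cells take up 4-thiouridine, a uridine analogue that UV light couples to the protein it touches, and the coupled RNA fragments are then isolated and sequenced. The cells were HEK293, a human embryonic kidney line. By the methods, a T-REx Flp-In derivative with stable overexpression of FLAG/HA-YBX1 was used and the tag was precipitated. The labels give an antibody against YBX1 (D2A11), which the methods name for Western blots. Labels and methods thus differ on how YBX1 was captured. Both samples belong to this 1 group, there is no control library, and the authors pooled the 2 replicates into 1 list of positions without read counts or scores. The depth behind a site is therefore unknown, no spread between replicates can be given, no test was run, and the intervals below cover counting error only. Intervals over sites also take the 25 sites as independent, although 15 of them lie in 3 mRNAs. Sites of 1 mRNA are not replicates, so these intervals may be too narrow and serve as description only. No expression values of these cells were used, so the absence of a site from the list does not show that YBX1 leaves an mRNA unbound.

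YBX1 is a cold-shock domain protein that coats mRNA in the cytoplasm and is known both to stabilise messages and, when abundant relative to mRNA, to hold back their translation. In initiation, eIF4F binds the cap, eIF4A unwinds the 5′UTR, eIF2 brings the initiator tRNA, eIF3 holds the small ribosomal subunit, and EIF1, EIF1AX and EIF5 act in start codon selection. In elongation, eEF1A delivers each tRNA and EEF2 moves the ribosome by 1 codon.

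EEF2 held 6 sites, EIF1AX 5 and EIF4G2 4, the most of the listed genes, which together made up 15 of the 25 (60%). The sequences of 14 of these 15 sites are shown because these 3 mRNAs hold most of the listed sites and differ in where they lie. Each is written 5′ to 3′ on the RNA strand with T for U, from GRCh38, and all 3 genes lie on the minus strand. Capitals mark the tetramers CATC and CACC, which are known from the cold-shock domain of YBX1, and the tetramers CAAC or AACA or AACT, which led the tetramers in earlier results of these data. Tetramers were searched on the RNA strand only, and several of them can overlap.
EEF2 site 1, coding (chr19:3983200-3983219): cttcctCATCAACctcattg
EEF2 site 2, coding (chr19:3982842-3982859): tCATCATCtcCACCtacg
EEF2 site 4, 3′UTR (chr19:3976391-3976415): cCATCactCAACcatAACActtgat
EEF2 site 5, 3′UTR (chr19:3976364-3976386): tttctttcaatatttatttccag
EEF2 site 6, 3′UTR (chr19:3976226-3976247): tccaAACTaattttAACAaacg
EIF1AX site 1, 3′UTR (chrX:20128007-20128025): cttttcctaccacttccag
EIF1AX site 2, 3′UTR (chrX:20126662-20126682): aattAACAattctcttcattg
EIF1AX site 3, 3′UTR (chrX:20126477-20126502): tttttctacttacctcctctAACAcg
EIF1AX site 4, 3′UTR (chrX:20125344-20125363): ctttttttcttcctattcag
EIF1AX site 5, 3′UTR (chrX:20124740-20124761): atattttacaaaatacCAACTg
EIF4G2 site 1, coding (chr11:10804170-10804192): cctcctaatttccaaattacaag
EIF4G2 site 2, coding (chr11:10800794-10800821): tctcaaAACTaatcCACCgcttatccag
EIF4G2 site 3, coding (chr11:10800554-10800573): tcctaAACActttcttcctg
EIF4G2 site 4, coding (chr11:10799310-10799329): AACTactactatctttcaag

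**Figure D1:**
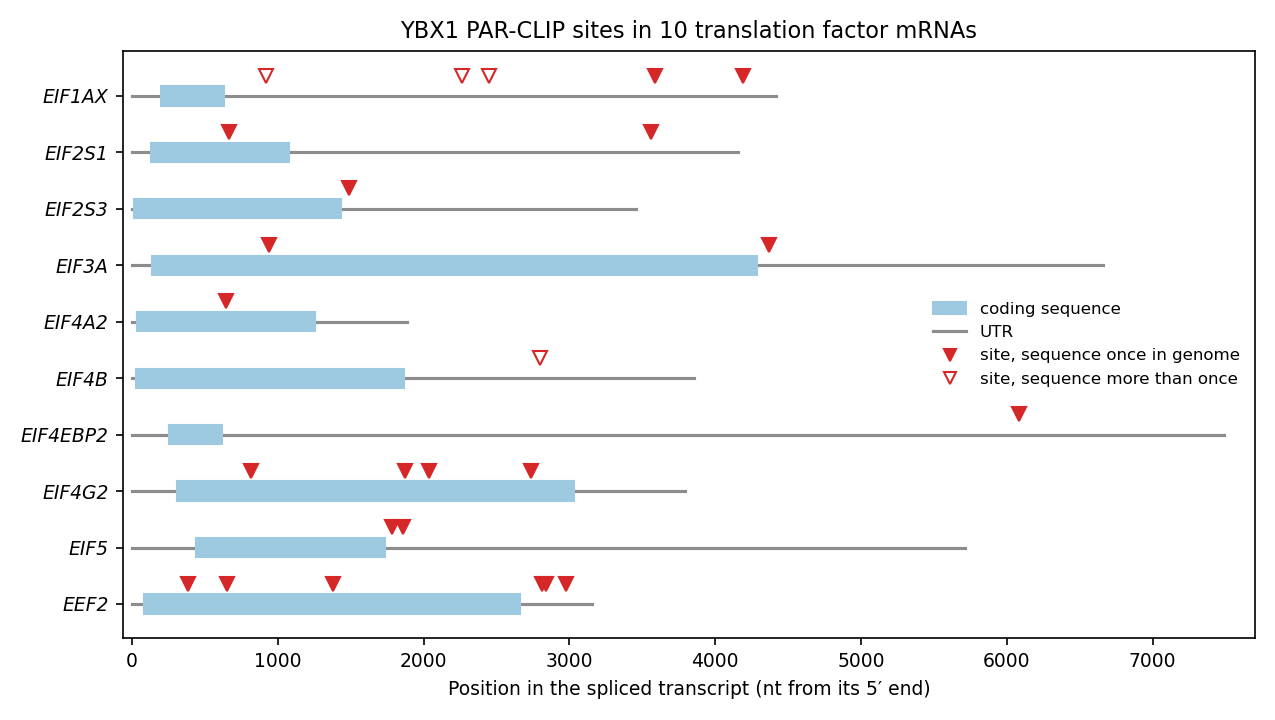
The spliced MANE Select transcripts of the 10 genes with a site are drawn to scale in nt from the 5′ end, with coding sequence as boxes, UTRs as lines and sites as triangles, open where the site sequence occurs more than once in the genome. All 5 sites of EIF1AX lie in its 3′UTR, all 4 of EIF4G2 in its coding sequence, and EEF2 has 3 in each.

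The share of translation factor genes with a site was 22.2% (10 of 45, Wilson 95% interval 12.5 to 36.3). Over all 19595 protein-coding genes with a 3′UTR, many of which HEK293 cells may not express, the same rule gave 6.89%. The 45 genes were chosen with earlier results of these data known, so the interval does not test this difference. At least 2 sites were listed in 6 of the 45 genes (13.3%, 6.26 to 26.2) and in 1.5% of all. EEF2, EIF1AX and EIF4G2 were among the 43 protein-coding genes with 4 or more sites (0.219% of all). Of the EIF1AX sites, only 2 have a sequence that occurs once in the genome.

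**Figure D2:**
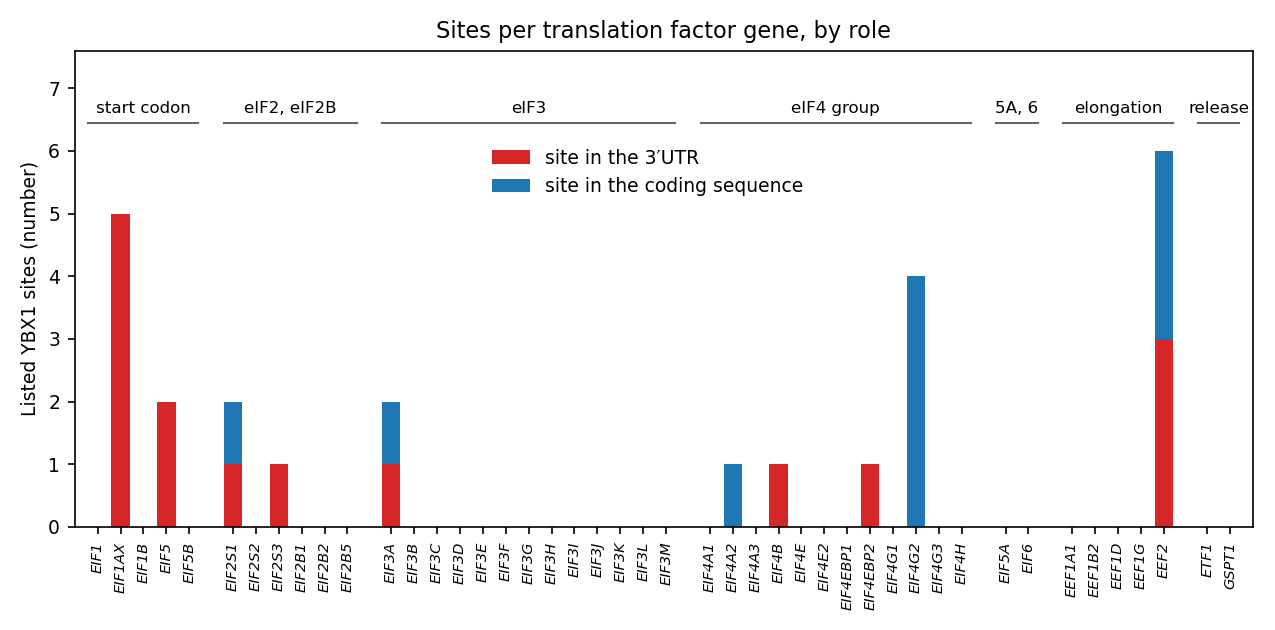
Bars give the number of listed sites in each of the 45 genes, grouped by role, with 3′UTR sites in red and coding sites in blue in the MANE Select transcript. Only 10 bars are above 0, and none of the 12 eIF3 genes other than EIF3A has a site.

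Among the 5 genes of start codon selection and subunit joining, EIF1AX and EIF5 had sites, and all 7 lay in 3′UTRs. Beside this and each count per role below stands the 6.89% of all protein-coding genes with a 3′UTR. The groups hold only 2 to 13 genes each, and their shares were not compared. EIF1AX, which helps the scanning ribosome to settle on the start codon, has a coding sequence of 435 nt and a 3′UTR of 3781 nt in its last exon. Its sites began 281, 1624, 1804, 2943 and 3545 nt after the stop codon, so they ran from 7.43% to 93.8% of the 3′UTR. The smallest gap was 159 nt, between the 2nd and 3rd, and the largest 1324 nt. A placement by length alone would put 4.28 of 5 sites in this 3′UTR. Sites 1, 2 and 3 each match 1 further place in the genome, in an unprocessed pseudogene on chromosome 1 (ENSG00000280114), and their reads cannot be told apart by sequence. Sites 4 and 5 occur once.

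EIF5, which makes eIF2 hydrolyse its GTP at the start codon, had a close pair just behind the stop codon (chr14:103341089-103341110 and chr14:103341160-103341188, plus strand). The pair began 37 and 108 nt after the stop codon in a 3′UTR of 3973 nt, with 49 nt between them. These sequences hold none of the 5 tetramers.
EIF5 site 1: gcaaattttcctccattatcag
EIF5 site 2: ctacactttacactaaaaatctattactg
EIF1, EIF1B and EIF5B, the GTPase of subunit joining, had no site on their own strand.

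Of the eIF2 subunits, which carry the initiator tRNA, EIF2S1 had 2 sites, EIF2S3 1 and EIF2S2 none. In EIF2S1, the alpha subunit whose phosphorylation slows initiation under stress, 1 site lay in exon 5 of 8 at codons 175 to 182 (chr14:67380709-67380730, plus strand). The other lay 2475 nt after the stop codon in a 3′UTR of 3076 nt (chr14:67385915-67385934). EIF2S3, the gamma subunit, had its site 45 nt after the stop codon (chrX:24076830-24076849, plus strand). EIF2B1, EIF2B2 and EIF2B5, subunits of the exchange factor of eIF2, had none.

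Of 13 eIF3 genes, 1 had a site, a share near the 6.89% of all protein-coding genes. It was EIF3A, the gene of the largest eIF3 subunit, with a coding site in exon 6 of 22 at codons 263 to 270 (chr10:119069586-119069609, minus strand) and a 3′UTR site 72 nt behind the stop codon (chr10:119035949-119035967). The coding site had the highest C and A content of all 25, at 79.2%, and 96.2% of all listed sites were at or below it.
EIF3A site 1, coding: tctaaaaaacCACCtaaacctcag
EIF3A site 2, 3′UTR: cttCAACcaatctaaattg
The median 3′UTR of the 13 genes was 669 nt, while that of EIF3A measures 2369 nt. EIF3F, EIF3M and EIF3H have longer 3′UTRs of 5830, 3865 and 2876 nt, and no site.

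Of the 12 genes around the cap and its helicase, EIF4A2, EIF4B, EIF4EBP2 and EIF4G2 had 7 sites, of which 5 were coding and 2 lay in 3′UTRs. Against 6.89% of all protein-coding genes, these were 4 of 12, or 3 with only sequences that occur once in the genome. EIF4G2, also called DAP5, is an eIF4G-like scaffold that does not bind the cap-binding protein. Its 4 sites lay in exons 7, 16, 17 and 20 of 22, at codons 165 to 173, 518 to 527, 573 to 580 and 807 to 813 of 908, counted with the stop codon. None lay in its 3′UTR of 762 nt, to which length alone would give 0.803 of the 4. The scaffolds EIF4G1 and EIF4G3, which do bind the cap-binding protein, had none in coding sequences of 4800 and 4926 nt. The EIF4G2 sites differed from every stretch of the EIF4G1 and EIF4G3 mRNAs by at least 6 bases.

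EIF4A2, a helicase closely related to EIF4A1, had 1 site at codons 200 to 207, which ends 7 nt before the end of exon 6 of 11 (chr3:186786244-186786266, plus strand). Its nearest match in EIF4A1 differed at 6 of 23 bases and that in EIF4A3, a helicase of the exon junction complex, at 9. EIF4B, which assists the helicase, had a site 926 nt after the stop codon (chr12:53041149-53041170, plus strand), and its sequence occurs at 4 places in the genome. EIF4EBP2, which keeps the cap-binding protein from joining eIF4G, had 1 site 5450 nt into a 3′UTR of 6871 nt (chr10:70427197-70427220, plus strand), and EIF4EBP1, with a 3′UTR of 430 nt, had none.
EIF4A2 site 1, coding: attttccaaaAACTaAACAcaag
EIF4B site 1, 3′UTR: ctactcttaacctcccaaaaag
EIF4EBP2 site 1, 3′UTR: tcacttacctacccataatatctg
The cap-binding proteins EIF4E and EIF4E2 and the helicase partner EIF4H had no site, and neither did EIF5A, which helps the ribosome through difficult stretches, nor EIF6, which keeps free large subunits from joining.

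EEF2 was the only 1 of the 5 elongation genes with a site, beside 6.89% of all protein-coding genes. Of its 3 coding sites, site 1 lay in exon 3 of 15 at codons 97 to 104 and site 2 in exon 4 at codons 187 to 193 of 859, counted with the stop codon. Its 3′UTR of 498 nt held sites that began 139, 168 and 307 nt after the stop codon, the first pair of them only 4 nt apart. This is 6.02 sites per kb of 3′UTR, the 5th highest of 144 protein-coding genes with at least 2 sites there, whose median was 0.733. That rank counts the close pair as 2 sites and was not recomputed with the pair merged. Among genes that all have at least 2 sites, a short 3′UTR also raises this density. EIF1AX, at 1.32 per kb, ranked 26th, and EIF5, at 0.503, ranked 103rd. The rank of EIF1AX counts all 5 of its sites, of which only 2 have a sequence that occurs once in the genome. Length alone would put 0.946 of the 6 EEF2 sites in the 3′UTR and 4.90 in the coding sequence, against 3 and 3 observed. The last site (site 6) is coding in 1 other EEF2 transcript. EEF1A1, EEF1B2, EEF1D and EEF1G, the factor that delivers tRNA and the subunits of its exchange factor, had no site on their own strand, and the release factors ETF1 and GSPT1 had none in 3′UTRs of 2210 and 4991 nt.

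With a site taken as 3′UTR when it is 3′UTR in any transcript of the gene, 3′UTRs took 17 of the 25 sites (68%, Wilson 95% interval 48.4 to 82.8) and coding exons took 8 (32%, 17.2 to 51.6). Over all 2054 sites these shares were 55.4% and 23.6%. That set also holds intergenic sites (9.2%), which the rule keeps out of the 25, and sites in noncoding exons (5.94%), introns and 5′UTRs. The shares are therefore not over like classes. By number, 1137 of all sites lay in 3′UTRs and 484 in coding exons, against 17 and 8 here. In the MANE Select transcripts alone, the split was 15 to 10, because the EIF4A2 site and site 1 of EIF4G2 fall in a 3′UTR only in transcripts marked for nonsense-mediated decay. None of the 25 lay in a 5′UTR or an intron (0 of 25, with an upper Wilson limit of 13.3%), where 1.17% and 4.77% of all sites lay, both below that limit. Length alone would put about 12 of the 25 sites in 3′UTRs, 12 in coding sequence and 1.03 in 5′UTRs.

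The authors' annotation placed 5 of the 10 coding sites at a promoter or a transcript end, in each case that of a small RNA gene that lies inside the translation factor gene. Sites 1 and 2 of EEF2 were named for SNORD37, which lies 628 and 270 nt away, and sites 2 and 3 of EIF4G2 for SNORD97, 646 and 894 nt away. The EIF4A2 site was set at the promoter of MIR1248, 406 nt away, but kept the name EIF4A2. These small RNAs are processed from introns, while all 5 sites lie in coding exons. A search for EEF2 or EIF4G2 in the gene column alone therefore finds 4 and 2 sites in place of 6 and 4.

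Members with a site had longer 3′UTRs, with a median of 2197 nt (498 to 6871, n = 10) against 669 nt (34 to 5830, n = 35) in those without. Over all protein-coding genes the medians were 2042 nt with and 1001 nt without a site. Among members with a 3′UTR of 2000 nt or more, 6 of 13 had a site, against 11.5% of all genes of such length. From 1000 to below 2000 nt it was 1 of 9, EIF4B, against 7.3%. With less than 1000 nt it was 3 of 23, EIF4A2, EIF4G2 and EEF2, against 3.78%. Of these 3 genes, only EEF2 had a site in the 3′UTR itself.

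Many translation factor genes have processed pseudogenes, and a read that fits several places cannot be assigned by its sequence. Of the 22-nt stretches of each mRNA, as long as the median site, the share that occurs elsewhere in the genome ranged from 1.43% in EEF2 to 87.0% in EIF4B among genes with a site (median 17.2%, n = 10), and from 1.46% in EIF3B to 89.0% in EEF1G among those without (median 25.6%, n = 35). The ranges overlap almost entirely. Among elongation factors, EEF2 had the least repeated mRNA, with EEF1D at 30.6%, EEF1A1 at 55.8%, EEF1B2 at 87.5% and EEF1G at 89.0%. In EEF1A1 this share was 99.9% before the 3′UTR and 24.4% within it. In EIF4G2 and EIF4G1, which had 4 sites and none, it was alike, at 1.99% and 2.06%. Whether repeated sequence lowers the number of listed sites was not tested. No site outside these genes, of 2029, had a sequence that occurs in any of their 689 transcripts, so none was listed at an exact copy of these mRNAs elsewhere.

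**Figure D3:**
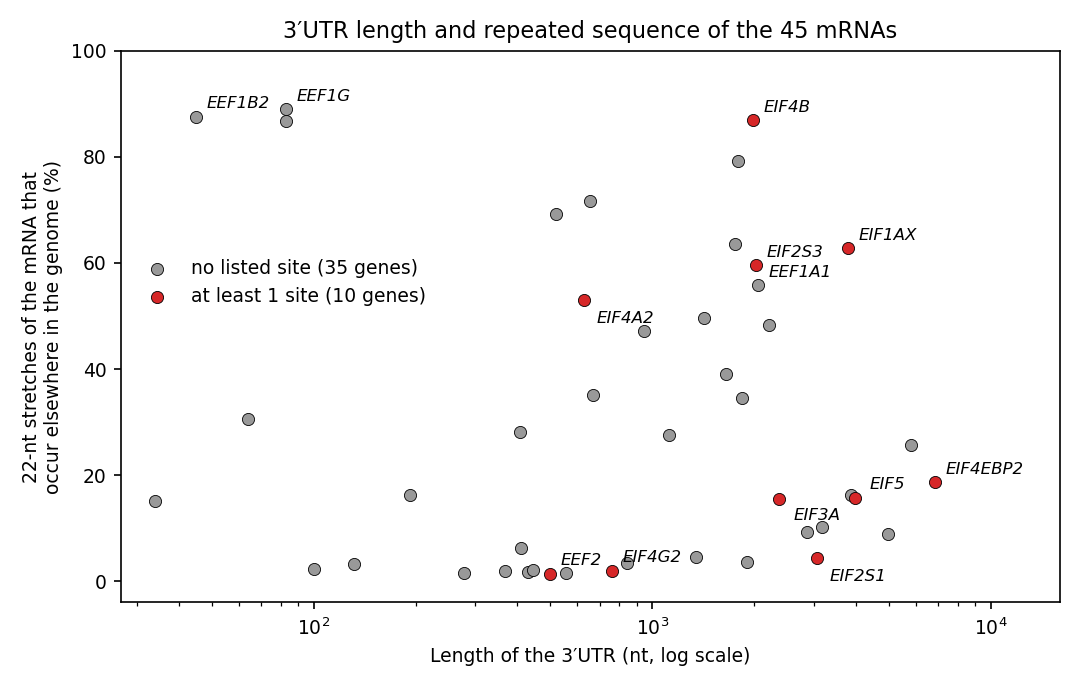
Each of the 45 mRNAs is placed by the length of its 3′UTR (nt, log scale) and by the percent of its 22-nt stretches that occur elsewhere in the genome, red with and grey without a listed site. Of the 10 mRNAs with a site, 4 lie above 50% and 3 below 10%, and of the 35 without, 8 and 13.

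The 25 sites were 18 to 29 nt wide (median 22 nt, as over all 2054 sites). RNase T1 cuts after G, and the reading of the listed end was checked on this G. By that reading, 23 of 25 sites ended in G (92%, against 87.6% of all sites) while 21 began after one (84%, against 79.2%). The exceptions at the 3′ end were site 2 of EIF2S1 and site 4 of EEF2. At most 1 G was held by 22 of 25 sites (88%, Wilson 95% interval 70.0 to 95.8), against 78.2% of all sites, a value within that interval.

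The median C and A content was 62.5% (35% to 79.2%), against 61.5% over all sites, and U made up 33.3% at the median, against 31.6%. It was 62.5% in the 15 sites in 3′UTRs and 62.6% in the 10 coding sites. For 19 sites, an equally wide stretch of the same exon at a distance of 100 nt could serve as a window, and 13 of these held more C and A than their window, by a median of 10.5 percentage points over the 19. Over all sites, 1082 of 1406 did, by a median of 13.0 points. Of the 19 sites, 17 also held less G than their window, and the part of RNase T1 in the difference was not tested.

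**Figure D4:**
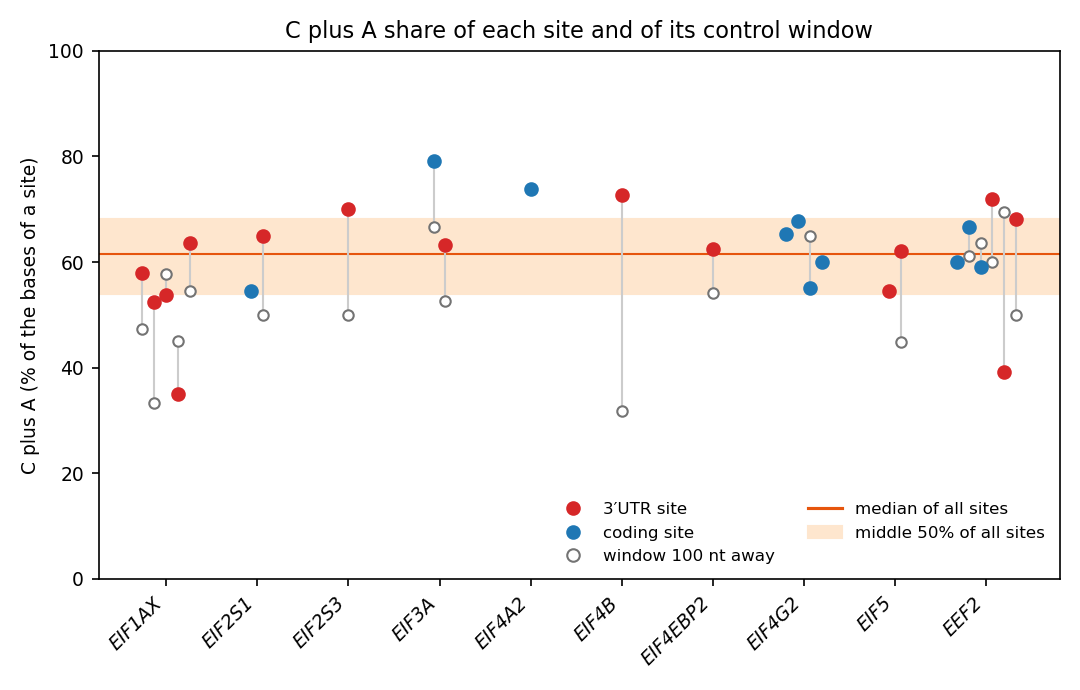
Filled points give the percent of C plus A in each site of the 10 genes, red in 3′UTRs and blue in coding sequence, joined to an open point for the window 100 nt away where there was one, over the median (line) and middle 50% (band) of all 2054 sites. Site 4 of EIF1AX, at 35%, and site 5 of EEF2, at 39.1%, lie below all others.

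The sites with the lowest C and A content held 1 G each, so the rest of their bases were necessarily U. Site 4 of EIF1AX held 35% C and A and 60% U, including an unbroken run of 14 pyrimidines, and only 8 of 2054 sites had as much U. Site 5 of EEF2 held 39.1% C and A and 56.5% U, which 15 of all sites reached. Its neighbour 4 nt upstream, site 4, was at 72% C and A. Over the 5 sites of EIF1AX the mean was 52.6%, the lowest of the 10 genes, and in EIF4A2, with 1 site, it was 73.9%, the highest.

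Of the tetramers, AACA was present in 7 of 25 sites (28%, against 31.0% of all sites), CAAC in 6 (24%, against 26.7%) and AACT also in 6 (24%, against 28.3%). CACC stood in 4 sites (16%, against 14.8%) and CATC in 3 (12%, Wilson 95% interval 4.17 to 30.0, against 25.2%), all 3 of them in EEF2. At least 1 of the 5 occurred in 16 sites (64%, 44.5 to 79.8), against 70.4% of all sites, a value within that interval. Several sites share an mRNA and are not independent, so these intervals test no difference. In EEF2 5 of the 6 sites held at least 1, in EIF4G2 3 of 4 and in EIF1AX 3 of 5.

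On the opposite strand, 3 further sites lay within genes of the list and were not counted. They were in EEF1A1 (chr6:73521169-73521196), EIF3F (chr11:7992922-7992941) and EIF5B (chr2:99400902-99400924). The EIF5B row lies in REV1, which runs the other way, and the EEF1A1 and EIF3F rows lie in no gene on their strand and hold 9 and 6 G. The authors' gene column names all 3 for the translation factor.

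Of 34 other genes of translation, chosen as further factors, kinases and regulators, 7 had a site (20.6%, Wilson 95% interval 10.3 to 36.8), against 6.89% of all protein-coding genes. The list was drawn up with earlier results of these data known, so its share is no independent check on that of the 45 genes. Many of all protein-coding genes may also not be expressed in HEK293 cells. Each of the 7 genes had 1 site. EIF4E3, a cap-binding protein, PAIP2, an inhibitor of poly(A)-binding protein, and LARP1, which binds messages of the translation machinery, had theirs in the 3′UTR. EIF2A, EEF1E1, PABPC4, a poly(A)-binding protein, and PDCD4, an inhibitor of the eIF4A helicase, had theirs in coding sequence of the MANE Select transcript. The PAIP2 site carries the name SLC23A1 in the authors' column, and the LARP1 sequence matches 2 places. The eIF2 kinases EIF2AK1, EIF2AK2, EIF2AK3 and EIF2AK4, the EEF2 kinase EEF2K, MTOR and RPS6KB1 had none.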

How the data were processed

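The deposited file lists positions, strand, nearest gene and annotation of YBX1 sites, with no count or score. By the methods and labels, adapters had been removed with cutadapt 1.4.1, the PARA-suite had mapped the reads to GRCh38 (hg38) and to transcripts, BMix at default settings had called the clusters from both replicates together, and HOMER had assigned the gene and class of each.

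Positions were read from base 1, with the last base 1 before the listed end, where the G left by RNase T1 lies. Regions came from GENCODE release 44, with MANE Select transcripts for positions. Exact matches were counted on both strands of chromosomes 1 to 22, X, Y and M. Python 3.11.15 with pysam 0.24.0 and scipy 1.17.1 was used, and intervals are Wilson 95% intervals. Computed positions were checked against the GENCODE transcript sequences, and 25 of 25 sites were identical. The members, lists and tetramers were chosen with earlier results of these data known, and the repeated stretches, the bands of 3′UTR length and the comparison with related mRNAs were added after seeing the sites. Every member and other gene with a site is named. The alternatives tried were any overlap, no regard to strand, the authors' names, exons only, wide or unique sites only, merged or extended sites, 1 value per gene, and other orders of regions. The sequence and position of 1 EEF2 site are not reported here.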

Additional observations from a re-analysis of the deposited data

How the results depend on the processing

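Of 32 values recomputed under other settings, 30 stayed within 1.5 times the count, or within the 95% interval of the share, and 2 did not. This is a weak check, since the intervals over 25 sites are wide and any overlap or exons only gave unchanged counts. The interval for C and A content (57.4 to 65.5) was taken over 554 bases, which are not independent of each other. With only sites wider than the median of 22 nt, 9 of the 25 sites were left, in 7 of the 10 genes. With sites extended by 10 nt on each side, C and A made up 54.1% of bases in place of 61.6%, and these flanks lie outside the listed sites. With only sequences that occur once in the genome, 21 sites in 9 genes were left, since EIF4B lost its only site and EIF1AX 3 of 5. Without regard to strand there were 28 sites in 13 genes, and by the authors' names 24 in 13. With sites within 50 nt merged, 23 were left. Leaving out a replicate was not possible, because the list pools both. The depth behind a site is unknown, so sites could not be ranked, and genes with a weak or poorly expressed site cannot be told from genes without one.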
